A study of Mus musculus with 15 samples.

Results

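The nuclear-encoded subunits of oxidative phosphorylation were measured in brain myeloid cells as 85 of the 38924 genes in the RNA-seq files. They were chosen by gene symbol alone, as Nduf with a, b, c, s or v and a number, Sdha to Sdhd, Uqcr, Cox4 to Cox8 and Atp5, and 1 symbol holding -ps (Atp5l-ps1) was left out. By their symbols 37 belonged to complex I, 4 to complex II, 8 to complex III, 18 to complex IV and 18 to complex V. A few symbols reach beyond the complexes they are named for. Ndufa4 is known as a subunit of complex IV, Cox7a2l is a factor that joins complexes III and IV into supercomplexes, Atp5l2 is annotated as a processed pseudogene in the reference, and Atp5s and Atp5sl are not structural subunits of the ATP synthase. The subunit genes Ndufab1 and Cyc1 lie outside the rule.

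Oxidative phosphorylation takes place in the inner mitochondrial membrane. Complex I takes electrons from NADH and complex II from succinate, complex III passes them on to cytochrome c, complex IV hands them to oxygen, and complex V uses the proton gradient to make ATP. A small set of core subunits is encoded in mitochondrial DNA, and all others, with the whole of complex II, are encoded in the nucleus and imported. In myeloid cells, resting microglia and macrophages are known to lean on this pathway, whereas neutrophils and acutely activated macrophages draw more on glycolysis.

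CD11b+CD45hi and CD11b+CD45lo cells were sorted from brains of 12-month wild-type C57BL/6J mice. CD-fed mice were kept on chow, and WD-fed mice received a western diet from 2 months of age. There were 4 libraries of CD45hi cells and 4 of CD45lo cells from CD-fed mice, and 3 of CD45hi cells and 4 of CD45lo cells from WD-fed mice. By convention a low CD45 level marks the microglia of the brain and a high level leukocytes that came from the blood, and neither gate is pure. The study describes its read counts as those of single animals, and the labels do not tie the libraries of the 2 gates to the same mice.

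Levels are given as normalized cpm, counts scaled to a common library total by TMM, and were tested with edgeR's quasi-likelihood test with Benjamini-Hochberg adjustment (FDR) over the 14967 genes at 1 cpm or more in at least 2 libraries. Total expected counts ranged from 11951412 to 17912272 per library, and 3 counts were worth 0.156 to 0.282 cpm. The subunit genes took 0.198 to 0.245% of all counts in a library. Several measures of composition moved with the CD45 gate. Transcripts of the mitochondrial genome took 17.7 to 20.5% of the counts in CD45hi libraries and 7.99 to 10.9% in CD45lo libraries. Mean effective transcript length was 2737 to 2854 bases in CD45hi and 2990 to 3175 bases in CD45lo libraries. The summed level of 10 microglia markers was 7872 to 9798 cpm in CD45hi and 16790 to 21140 cpm in CD45lo libraries, and all 10 were lower in CD45hi cells on both diets. The summed level of 9 monocyte and macrophage markers was 8914 to 14930 cpm in CD45hi and 475.4 to 1156 cpm in CD45lo libraries, with 8 of 9 higher on both diets. For 12 neutrophil markers it was 1495 to 4394 and 654.8 to 1387 cpm, with 7 of 12 higher on both diets, and for 10 lymphocyte markers 11.8 to 158 and 0 to 0.571 cpm, with 3 and 5 of 7 tested higher on the CD and WD. No lymphocyte marker was at 0 in all CD45hi libraries of CD-fed mice, and Cd3e and Cd3g were at 0 in those of WD-fed mice. For 10 markers of neurons, astrocytes, oligodendrocytes and vessel cells it was 94.6 to 226.3 and 64.2 to 98.3 cpm, with 1 of 10 lower on the CD and 1 higher on the WD, and Aldh1l1, Mog and Syt1 at 0 in CD45hi cells of CD-fed mice. The part of these differences in the results for subunit genes was not tested. In bulk RNA, a change in the share of a cell type and a change of RNA per cell cannot be told apart.

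Of the 85 genes, 77 reached the level needed for testing, with 36 in complex I, 4 in complex II, 8 in complex III, 13 in complex IV and 16 in complex V. The 8 others were Ndufa4l2, Cox4i2, Cox7a1, Cox7b2, Cox8b, Cox8c, Atp5g2 and Atp5l2. Per transcript length, ATP synthase led the pathway. Atp5b, which encodes the catalytic beta subunit, had the highest mean TPM of the whole set at 892.3, followed within complex IV by Cox4i1 at 282.2, within complex III by Uqcrh at 118.4 and within complex II by Sdha at 114.8. The 5 genes with the highest TPM gave 26.1 to 35.1% of the summed TPM of the set in each library. Atp5b was also among the steadiest, at 325.2 ± 84.4 normalized cpm in CD45hi cells of CD-fed mice (SD, n = 4), 385.4 ± 40.6 in their CD45lo cells (SD, n = 4), 349.8 ± 19.7 in CD45hi cells of WD-fed mice (SD, n = 3) and 382.7 ± 39.2 in their CD45lo cells (SD, n = 4). Its log2 difference between CD45hi and CD45lo cells was -0.24 (SE 0.164, FDR 0.463) on the CD and -0.13 (SE 0.177, FDR 0.722) on the WD.

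Among the summed levels of the 5 complexes, that of complex IV was the only one whose normalized cpm did not overlap between the CD45 gates on either diet. In WD-fed mice it was 527.8 to 645.5 normalized cpm in the 3 CD45hi libraries and 300.2 to 342.0 in the 4 CD45lo libraries. The 2 ranges were also apart without TMM scaling, at 468.6 to 556.2 and 332.2 to 372.1 cpm of the library total, and in TPM, at 1462 to 1733 and 1166 to 1303. In CD-fed mice the complex IV sum was 379.9 to 542.2 normalized cpm in CD45hi and 286.5 to 311.3 in CD45lo cells and the ranges were also apart in cpm of the library total, but in TPM they overlapped (1080 to 1495 and 1085 to 1280). The complex III sum was 143.6 to 271.8 in CD45hi and 96.2 to 110.9 normalized cpm in CD45lo cells of WD-fed mice, with overlap in TPM (371.6 to 748.3 and 321.8 to 406.1).

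For complexes II and V, whether the ranges of CD45hi and CD45lo cells lay apart depended on the scale. The complex V sum of CD-fed mice overlapped between the gates in normalized cpm (784.2 to 1049 in CD45hi and 883.3 to 920.8 in CD45lo cells), whereas in TPM all 4 CD45hi libraries lay below all 4 CD45lo libraries (1604 to 1855 and 2023 to 2249). In WD-fed mice the complex V sum was higher in CD45hi cells in normalized cpm (984.9 to 1083 and 831.5 to 872.4), whereas its TPM ranges overlapped (1877 to 2016 and 1924 to 2142). The complex II sum of CD-fed mice was 164.9 to 237.4 TPM in CD45hi and 265.1 to 344.7 TPM in CD45lo cells, and in normalized cpm the ranges overlapped (200.6 to 281.8 and 268.8 to 339.4). These sums are descriptions with no test.

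**Figure D1:**
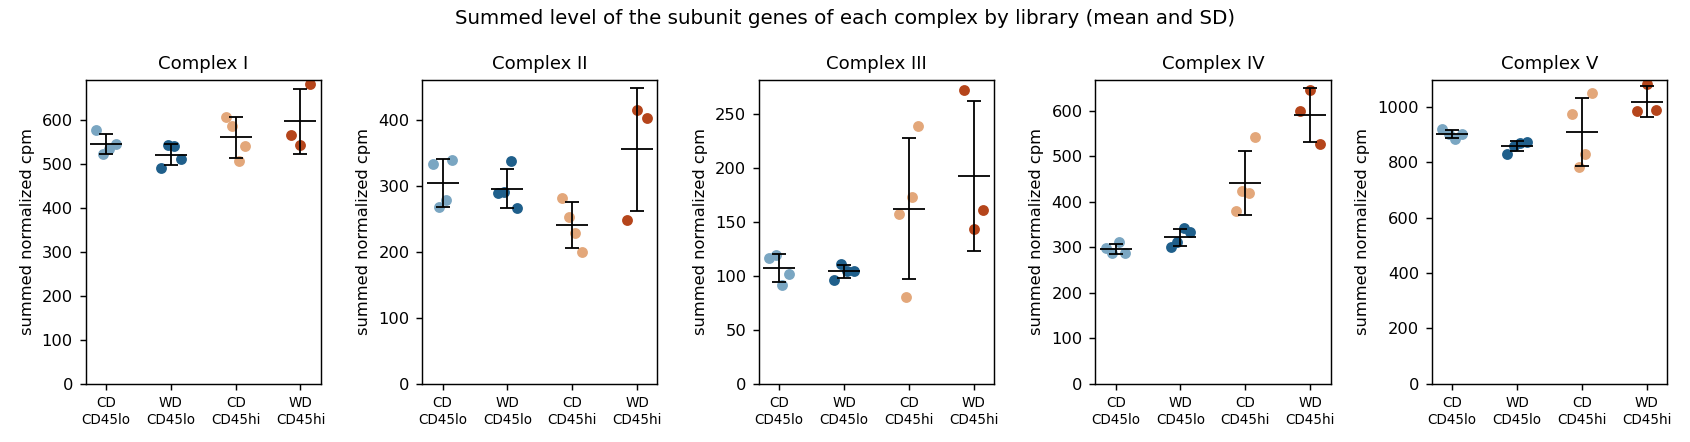
Summed normalized cpm of the subunit genes of each complex (y axis, from 0) in each library (points), by diet and CD45 gate (x axis), with the mean and SD of the group as bars. Complex IV is the panel in which all CD45hi libraries, at 379.9 to 645.5, lie above all CD45lo libraries, at 286.5 to 342.0.

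In CD-fed mice no subunit gene differed between CD45hi and CD45lo cells at an FDR under 0.05 in edgeR. This was 0 of 77 against 8.03% of all genes tested, and 0 of 77 against 3.98% in the test for a difference beyond 1.5-fold. At an unadjusted p under 0.05, 6 subunit genes were higher and 2 lower, against 11.8% and 8.3% of all genes, and DESeq2 called 4 at its FDR, against 12.4% of all genes. Without CD45hi replicate 1 of the CD-fed mice Cox7b and Ndufb2 were called, and without replicate 3 of the WD-fed mice Cox7a2l and Cox7b. The log2 difference was above 0 for 63.6% of the subunit genes and 51.8% of all genes, and its median was 0.27 over the 77 and 0.04 over all genes. For 6 subunit genes the CD45hi libraries all lay above the CD45lo libraries and for 1 they all lay below, where 8.26% and 8.22% of all genes did so.

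In WD-fed mice 3 of 77 subunit genes were changed, all of them higher in CD45hi cells, whereas 9.12% of all genes were called and 6.22% were called as higher. They were Sdhd, Cox7a2l and Atp5h. Sdhd alone passed the test for more than 1.5-fold, against 5.18% of all genes. With DESeq2 14 were called, against 15.8% of all genes, and with the edgeR 4 quasi-likelihood 11, against 11.9%. Genes of complexes I and III called in both of these fits were Ndufa9, Ndufb10, Ndufs6, Uqcrfs1 and Uqcrh. Ndufa9 was lower in CD45hi cells and the others were higher. The median log2 difference was 0.54 for the subunit genes and 0 for all genes, and 71.4% and 50% of them lay above 0. At an unadjusted p under 0.05, 19 subunit genes were higher and 2 lower, against 13.3% and 11.2% of all genes. CD45hi libraries lay apart from CD45lo libraries on the high side for 18 genes and on the low side for 2, against 10% and 13.4% of all genes. Leaving out any 1 of the 8 CD45lo libraries, of either diet, left Sdhd as the only call, and leaving out any 1 of the 7 CD45hi libraries gave 4 to 9 calls. The share of all genes called in these fits is not given, so the counts cannot be read as particular to the subunit genes. Both comparisons move with the scaling: with library totals in place of TMM, the median difference of the subunit genes was 0.018 on the CD and 0.24 on the WD, where the medians of all genes were -0.20 and -0.31.

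**Figure D2:**
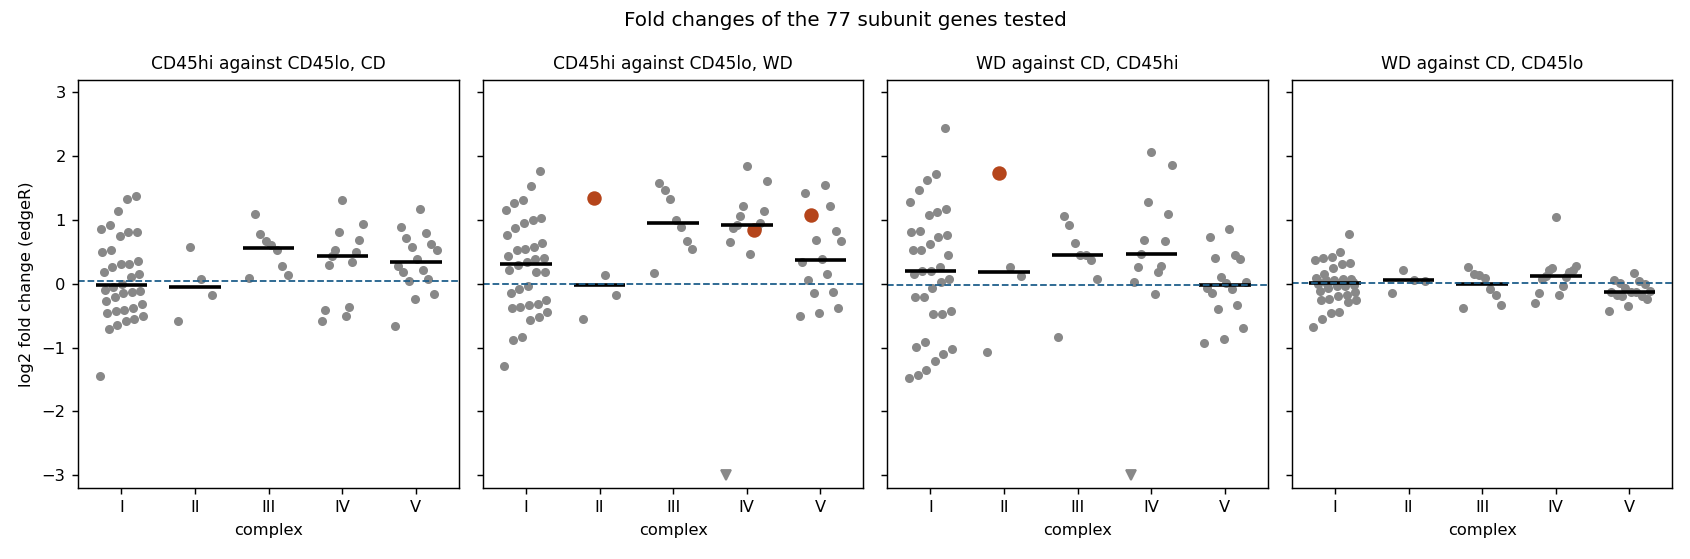
Fitted log2 fold changes (y axis) of the 77 tested subunit genes (points) by complex (x axis) in 4 comparisons (panels). Black bars are the medians of a complex, the dashed line is the median of all 14967 genes, red points have an FDR under 0.05, and the triangle marks Cox6b2, which lies below the axis. In WD-fed mice the complex III and IV medians, 0.95 and 0.93, stand above those of complexes I, II and V, 0.32, -0.02 and 0.37.

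Complex II is the smallest complex and gave the clearest single gene. Sdhd, which encodes the small membrane anchor that helps to bind ubiquinone and heme, lies on mouse chromosome 9 at positions 50596357 to 50603812 of the minus strand (GRCm38). In CD45hi cells of WD-fed mice it was at 93.7, 190.3 and 111.2 normalized cpm. In CD45lo cells of WD-fed mice it was at 45.1, 48.3, 69.6 and 45.2 cpm. In CD-fed mice it was at 42.7, 30.3, 50.1 and 34.8 cpm in CD45hi and at 53.0, 35.5, 41.5 and 48.9 cpm in CD45lo cells. The 3 CD45hi libraries of WD-fed mice lay above all 12 others, and replicate 2 was far above its 2 fellows. On the WD the log2 difference between CD45hi and CD45lo cells was 1.34 (SE 0.288, FDR 0.00582), or 2.53-fold, and the test beyond 1.5-fold gave an FDR of 0.0443. On the CD it was -0.18 (SE 0.268, FDR 0.795). Sdhd was called at any change in every alternative run, with log2 differences of 0.98 to 1.53 when single libraries were left out. It did not pass 1.5-fold without CD45hi replicate 2 of the WD-fed mice or without any 1 CD45lo library other than replicate 3 of the WD-fed mice.

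The other 3 genes of complex II did not follow Sdhd. Sdha, the flavoprotein that oxidizes succinate, was at 154.2, 171.7, 108.6 and 97.1 normalized cpm in CD45hi and at 215.1, 172.1, 184.1 and 226.9 cpm in CD45lo cells of CD-fed mice. All 4 CD45hi libraries were below all 4 CD45lo libraries, but the log2 difference of -0.59 (SE 0.206) did not pass (FDR 0.0993). On the WD it was -0.18 (SE 0.223, FDR 0.688). Sdhb, the iron-sulfur subunit, was at 26.7, 8.94, 8.01 and 23.8 cpm in CD45hi cells of CD-fed mice, a pair of high and a pair of low libraries, and at 4.70, 10.5 and 8.89 cpm in those of WD-fed mice. Its log2 differences between gates were 0.57 (SE 0.483, FDR 0.588) on the CD and -0.56 (SE 0.528, FDR 0.578) on the WD. Sdhc, the other membrane anchor, differed by 0.07 (SE 0.327) and 0.14 (SE 0.352) on the 2 diets, with WD CD45hi libraries at 19.6, 77.8 and 71.8 cpm.

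**Figure D3:**
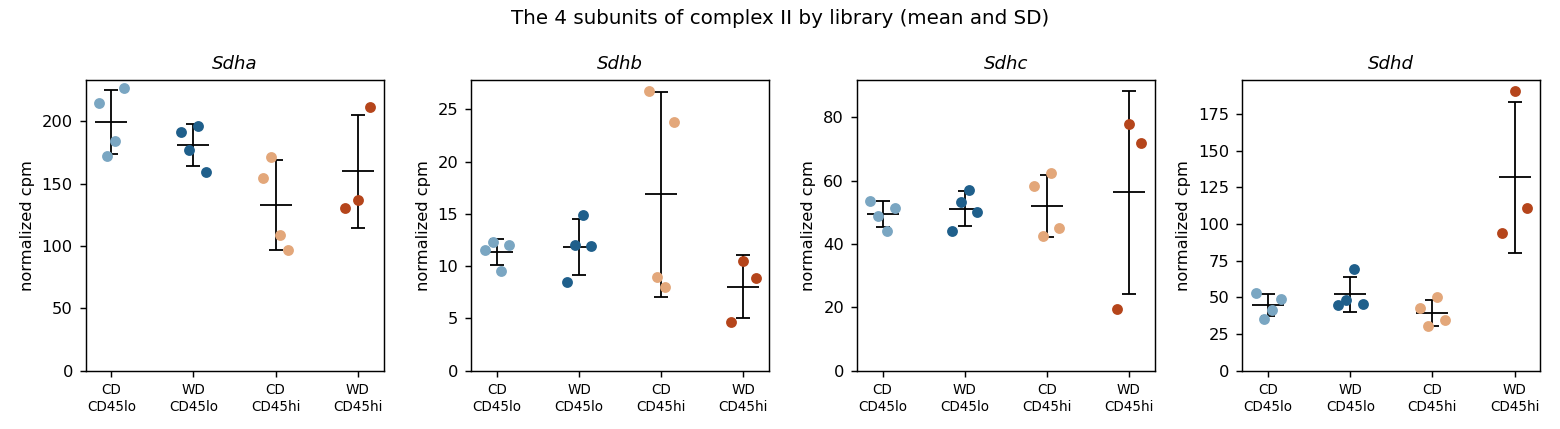
Normalized cpm (y axis, from 0) of the 4 complex II genes in each library (points), by diet and CD45 gate (x axis), with the mean and SD of the group as bars. Sdhd was at 93.7 to 190.3 cpm in CD45hi cells of WD-fed mice and at 30.3 to 69.6 cpm in the other 12 libraries, and Sdha, Sdhb and Sdhc have no such step.

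Per transcript length the separation of Sdhd was smaller. Its TPM was 108.9 to 214.1 in CD45hi and 71.5 to 116.7 in CD45lo cells of WD-fed mice, which overlap, and 39.1 to 61.9 and 57.7 to 89.9 in the same order in CD-fed mice. No other gene of the reference annotation overlapped Sdhd, Cox7a2l or Atp5h. Sdhd and Cox7a2l had whole counts in all 15 libraries, whereas Atp5h had fractional counts in 8, which RSEM gives where reads match several genes. Of all 85 subunit genes, 30 had fractional counts in at least 1 library, 29 were overlapped by a gene on the opposite strand and 12 by a gene on the same strand. The TruSeq v2 kit does not mark strand, so reads from such pairs cannot be told apart.

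The promoters of the 3 changed genes are shown because the nuclear subunits are known to share binding sites for the ETS factor GABP and for NRF1. The 250 bases before the RefSeq start are printed 5′ to 3′ on the gene's strand (GRCm38.p6), and capitals mark matches to CCGGAA, the ETS core, or to GCATGCG or GCACGCG, the NRF1 core, on either strand. The windows are chr9:50603850-50604099 for Sdhd, chr11:115419920-115420169 for Atp5h and chr17:83514334-83514583 for Cox7a2l, all on the minus strand.
Sdhd: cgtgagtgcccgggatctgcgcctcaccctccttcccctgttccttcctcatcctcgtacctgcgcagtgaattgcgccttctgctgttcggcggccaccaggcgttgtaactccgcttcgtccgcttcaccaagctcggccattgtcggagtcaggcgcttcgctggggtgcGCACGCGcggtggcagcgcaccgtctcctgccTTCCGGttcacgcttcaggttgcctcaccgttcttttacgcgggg
Atp5h: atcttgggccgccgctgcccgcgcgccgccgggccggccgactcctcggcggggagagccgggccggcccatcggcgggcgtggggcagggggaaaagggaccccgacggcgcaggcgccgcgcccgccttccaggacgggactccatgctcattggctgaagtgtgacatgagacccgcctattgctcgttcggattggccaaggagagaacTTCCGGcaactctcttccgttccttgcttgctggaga
Cox7a2l: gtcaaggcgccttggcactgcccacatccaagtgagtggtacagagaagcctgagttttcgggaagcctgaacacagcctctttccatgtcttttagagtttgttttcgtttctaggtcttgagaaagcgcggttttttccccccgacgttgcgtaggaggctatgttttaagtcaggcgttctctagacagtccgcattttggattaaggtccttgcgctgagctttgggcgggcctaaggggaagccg
The Sdhd window held 1 ETS and 1 NRF1 match and the Atp5h window 1 ETS match. The Cox7a2l window held none of these letters, and it lies inside the longer gene span of the reference annotation, which reaches from 83501918 to 83517330. Of the 85 subunit genes, 67 had a RefSeq promoter. The ETS core was in 21 of them (31.3%) and in 13.6% of all 27025 genes with a RefSeq promoter, and an NRF1 core was in 14 (20.9%) and in 7.17%. A gene was counted once if any of its promoters held a match. The genes compared were not limited to those expressed here, and bases past the start were not searched. The YY1 core AAGATGG was in 2 (2.99%) and in 5.18%. No core contains another. A match describes the sequence and not a bound site.

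In complex III all 8 genes had positive log2 differences between CD45hi and CD45lo cells on both diets. The medians were 0.57 on the CD and 0.95 on the WD. None passed the test, although on the WD DESeq2 and the edgeR 4 quasi-likelihood called Uqcrfs1 and Uqcrh. With library totals in place of TMM the signs of Uqcr11 on the CD and of Uqcrc1 on the WD turned. Uqcrfs1, the Rieske iron-sulfur protein, came closest. It was at 32.1, 14.9 and 34.7 normalized cpm in CD45hi and at 8.52, 12.5, 5.65 and 9.62 cpm in CD45lo cells of WD-fed mice. The 2 sets did not overlap, and the log2 difference was 1.58 (SE 0.491, FDR 0.0528), or 3.00-fold. On the CD it was 0.28 (SE 0.456, FDR 0.817), with CD45hi libraries from 5.38 to 19.7 cpm around the CD45lo range of 10.4 to 13.2 cpm.

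Uqcrh, the hinge protein that holds cytochrome c1, was at 28.1, 57.9 and 31.4 normalized cpm in CD45hi and at 14.8, 18.6, 13.6 and 15.3 cpm in CD45lo cells of WD-fed mice, a log2 difference of 1.33 (SE 0.425, FDR 0.0607). Uqcrq, a small subunit next to cytochrome b, led complex III on the CD with 1.09 (SE 0.650, FDR 0.391). The lowest of the complex were Uqcr11 on the CD, at 0.08 (SE 0.835), and Uqcrc1, a core subunit, on the WD, at 0.17 (SE 0.492). Uqcr11 had 1 count in CD45hi replicate 4 of the CD-fed mice, where the 3 other libraries of that group were at 3.73 to 6.55 cpm.

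Of the 13 tested genes of complex IV, 9 had positive log2 differences on the CD and 12 on the WD, with medians of 0.43 and 0.93. Cox7a2l was at 117.6, 246.6 and 98.5 normalized cpm in CD45hi and at 91.0, 76.3, 95.6 and 80.2 cpm in CD45lo cells of WD-fed mice, which is a narrow gap apart from replicate 2. The log2 difference was 0.85 (SE 0.253, FDR 0.0442), and without CD45hi replicate 2 it was 0.33 (FDR 0.297). In CD-fed mice Cox7a2l was at 107.8, 126.4, 142.0 and 133.8 cpm in CD45hi and at 82.7, 75.9, 73.5 and 83.9 cpm in CD45lo cells. Those ranges lay wider apart, and the log2 difference was 0.69 (SE 0.237, FDR 0.0895). In TPM the CD45hi and CD45lo ranges of Cox7a2l overlapped on the WD (144.2 to 340.9 and 156.0 to 197.25) and on the CD (162.5 to 215.4 and 151.5 to 180.8).

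The largest difference of complex IV on the CD was that of Cox7b, a small subunit needed for assembly. Its CD45hi libraries were at 19.2, 43.9, 48.8 and 43.8 normalized cpm and its CD45lo libraries at 18.9, 10.6, 17.9 and 15.6 cpm. The groups did not overlap, although CD45hi replicate 1 was close to the CD45lo libraries, and the log2 difference was 1.31 (SE 0.412, FDR 0.0621). On the WD it was 0.87 (SE 0.435, FDR 0.231).

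Most isoforms of complex IV that are known from muscle, lung or testis were at or near 0 counts, while their ubiquitous partners were measured in every library. Cox7b2, Cox8b and Cox8c had 0 counts in all 15 libraries, which allows up to 0.156 to 0.282 cpm in each. Cox4i2 did not exceed 0.148 cpm, Cox7a1 0.459 cpm and Ndufa4l2 0.519 cpm. Among the partners, Cox4i1 was at 46.9 to 147.7 cpm, Cox6a1 at 21.8 to 81.5, Cox6b1 at 15.9 to 59.4, Cox7a2 at 1.41 to 37.0, Cox7b at 10.6 to 48.8, Cox8a at 10.2 to 44.1 and Ndufa4 at 7.53 to 46.3 cpm. None of these 7 passed the test between the gates. Cox7b on the CD came nearest, as given above, and on the WD it was Cox6b1, with 59.4, 41.7 and 24.1 cpm in CD45hi and 19.2, 15.9, 19.4 and 21.1 cpm in CD45lo cells of WD-fed mice (log2 difference 1.14, SE 0.374, FDR 0.0673), followed by Cox6a1 (0.93, SE 0.322, FDR 0.0828).

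The 2 restricted isoforms that could be tested had opposite signs on the WD. Cox6a2, the heart and muscle form of subunit VIa, was at 0.941, 2.08 and 1.69 normalized cpm in CD45hi and at 0.197 to 0.594 cpm in CD45lo cells of WD-fed mice (log2 difference 1.85, SE 1.24, FDR 0.393). Its gene overlaps the integrin gene Itgad on the opposite strand. Cox6b2, the testis form of subunit VIb, had 0.0671 cpm in 1 and 0 counts in 2 of the CD45hi libraries of WD-fed mice, and was at 0.393, 0.594, 0.714 and 4.24 cpm in their CD45lo libraries (FDR 0.107). A fitted fold against such counts depends on the prior count and is not given. The median of complex IV is the same for any value of Cox6b2 below it.

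In complex V, 13 of 16 genes had positive log2 differences on the CD and 11 of 16 on the WD, with medians of 0.33 and 0.37. Atp5h, subunit d of the peripheral stalk, was at 88.5, 52.4 and 69.8 normalized cpm in CD45hi and at 33.8, 30.7, 37.99 and 30.8 cpm in CD45lo cells of WD-fed mice. The groups did not overlap, and the log2 difference was 1.07 (SE 0.324, FDR 0.0465), or 2.11-fold. In CD-fed mice it was at 29.6, 60.6, 53.3 and 24.8 cpm in CD45hi cells, which spread around the 28.0 to 36.1 cpm of the CD45lo cells. Its call was lost without CD45hi replicate 1 or 3 of the WD-fed mice or any 1 CD45lo library. In TPM its ranges overlapped on the WD as well (148.8 to 293.3 and 132.3 to 176.1).

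Atp5e, the epsilon subunit of the central stalk, had the largest difference of complex V on the WD, with 39.6, 13.9 and 20.3 normalized cpm in CD45hi and 7.80, 9.87, 9.77 and 6.06 cpm in CD45lo cells (log2 difference 1.55, SE 0.522, FDR 0.0734). Atp5l, subunit g, had the largest on the CD, at 1.17 (SE 0.471, FDR 0.160). Atp5g3 had the lowest on both diets, at -0.67 (SE 0.469, FDR 0.491) and -0.51 (SE 0.510, FDR 0.601). It encodes the proton-carrying c subunit, as do Atp5g1 and Atp5g2. Atp5g1 was at 9.22 to 45.8 and Atp5g3 at 4.42 to 27.7 cpm. Atp5g2 rounded to 0 counts in 11 of 15 libraries and was at 0.530 to 1.97 cpm in the others. Expected counts were fractional in all 15 libraries for Atp5g1 and in 5 for Atp5g2, so the split of reads between these genes is an estimate. The log2 difference of Atp5g1 was 0.04 (SE 0.397) on the CD and -0.47 (SE 0.434) on the WD.

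Complex I had the most genes, and their directions were mixed. On the CD 17 of 36 and on the WD 22 of 36 log2 differences were positive, with medians of -0.03 and 0.32. None passed the test, although on the WD DESeq2 and the edgeR 4 quasi-likelihood called Ndufa9, Ndufb10 and Ndufs6. The 7 core subunits, which carry the flavin and iron-sulfur clusters, had medians of -0.11 and -0.37, and the 29 accessory subunits -0.0026 and 0.41.

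Ndufa9 and Ndufs6 marked the ends of complex I on the WD. Ndufa9, an accessory subunit of the matrix arm, was at 6.87, 24.8 and 29.5 normalized cpm in CD45hi and at 54.2, 50.1, 44.3 and 50.8 cpm in CD45lo cells of WD-fed mice (log2 difference -1.29, SE 0.417, FDR 0.0644). In CD-fed mice its CD45hi libraries, at 31.3 to 72.1 cpm, overlapped the CD45lo libraries, at 42.7 to 76.0 cpm. An antisense gene, 1700018A23Rik, overlaps Ndufa9, and Mrpl36 overlaps Ndufs6 on the opposite strand. Ndufs6, a zinc-binding subunit, was at 36.4, 17.7 and 18.9 cpm in CD45hi and at 4.85, 6.23, 8.67 and 8.71 cpm in CD45lo cells of WD-fed mice (1.77, SE 0.635, FDR 0.0928).

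On the CD the ends of complex I were Ndufc1, a small subunit of the membrane arm, and Ndufb2. Ndufc1 was at 9.04, 5.55, 5.37 and 9.14 normalized cpm in CD45hi and at 2.82, 2.65, 3.50 and 2.21 cpm in CD45lo cells, with no overlap (log2 difference 1.38, SE 0.779, FDR 0.360). Ndufb2 was at 5.90, 0.580, 1.23 and 0.837 cpm in CD45hi and at 8.41, 4.98, 2.83 and 7.09 cpm in CD45lo cells (-1.44, SE 0.746, FDR 0.302). Braf and the antisense gene Gm16272 overlap Ndufb2 on the opposite strand, and Gm42420 overlaps it on the same strand. Expected counts were fractional in 11 libraries for Ndufb2 and in all 15 for Ndufc1.

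**Figure D4:**
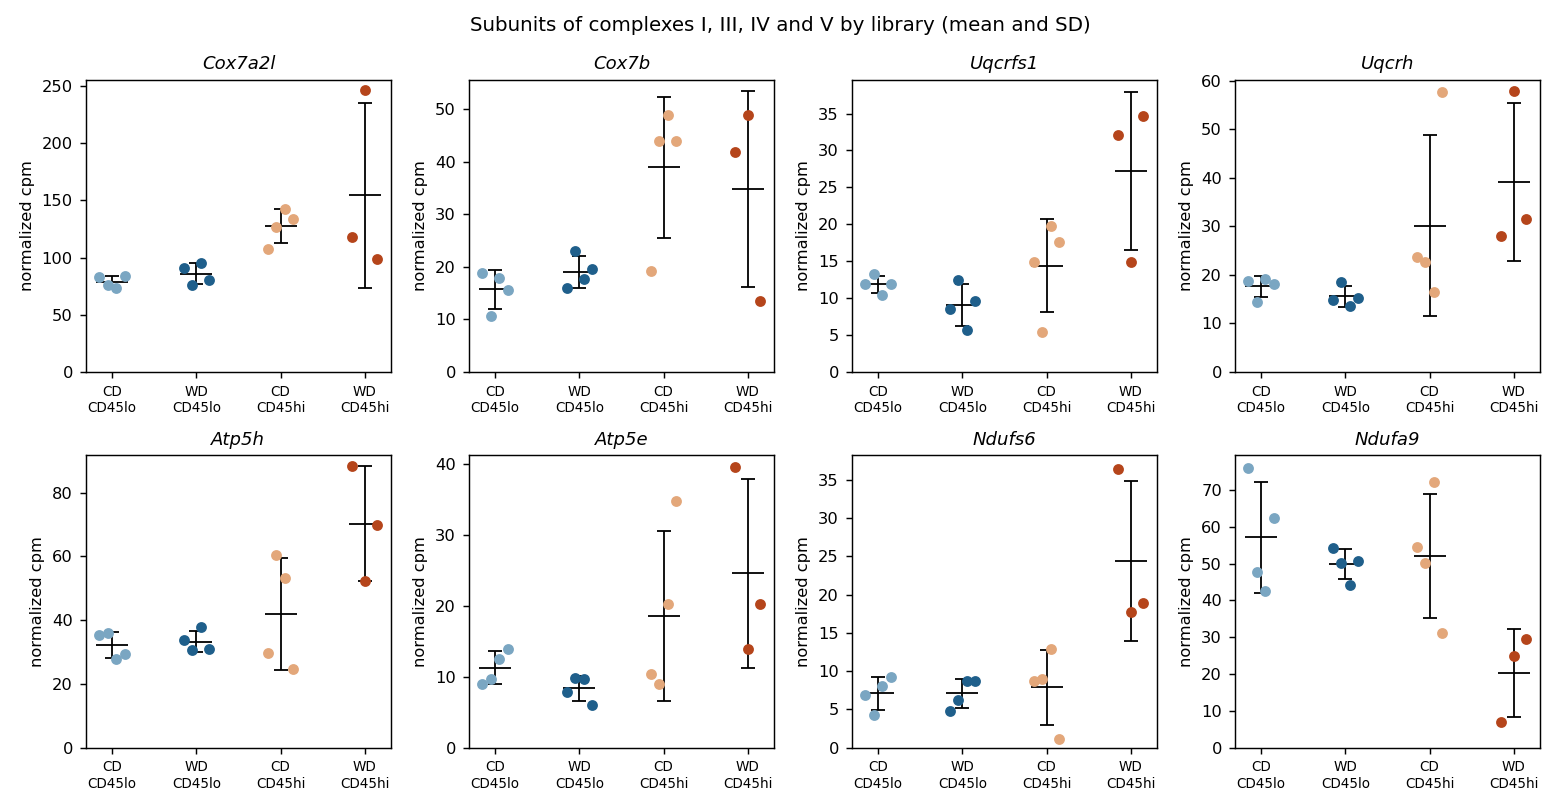
Normalized cpm (y axis, from 0) of 8 subunit genes of complexes I, III, IV and V in each library (points), by diet and CD45 gate (x axis), with the mean and SD of the group as bars. In WD-fed mice the CD45hi libraries of Cox7a2l, Uqcrfs1, Uqcrh, Atp5h, Atp5e and Ndufs6 lie above and those of Ndufa9 below the CD45lo libraries, with the 3 CD45hi libraries far apart in most panels.

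The comparison of the diets within CD45hi cells asks whether the WD changed these cells. Sdhd was the 1 of 77 subunit genes that changed, and it was higher on the WD, whereas 0.254% of all genes were called and 0.0601% were called as higher. Its log2 difference was 1.74 (SE 0.289, FDR 0.0241), or 3.34-fold, and it rests on the 3 libraries of WD-fed mice listed above. Without CD45lo replicate 2 of the WD-fed mice, which shares the estimate of spread, the FDR was 0.0531, with the 2 compared groups alone it was 0.719 and with the title numbers as a replicate block 0.119. Ndufb2 was called as well without CD45hi replicate 1 of the CD-fed mice, and Atp5s, which was at 0, 13.5 and 0.307 cpm in CD45hi cells of WD-fed mice, without replicate 2. At an unadjusted p under 0.05, 9 subunit genes were higher and 3 lower, against 8.16% and 9.39% of all genes. Libraries did not overlap for 6 genes on the high and 2 on the low side, against 2.58% and 3.19% of all genes. The median log2 difference was 0.26 and that of all genes -0.02, and 66.2% and 48.5% lay above 0. The summed levels of every marker list given above overlapped between the diets in these libraries. Log2 differences were above 0 for 4 of 10 microglia markers and 5 of 9 monocyte and macrophage markers. The summed neutrophil markers were at 1788 to 4394 cpm in CD-fed and 1495 to 2645 cpm in WD-fed mice, with all 12 log2 differences below 0, and those of other brain cells at 94.6 to 144.9 and 98.8 to 226.3 cpm, with 8 of 10 above 0. In each of the neutrophil and other brain lists none passed an FDR of 0.05 in edgeR and 4 had an unadjusted p under 0.05. The summed lymphocyte markers were at 11.8 to 62.4 and 34.7 to 158 cpm. Their part in the result was not tested. By complex the median log2 difference of the subunit genes was 0.20 in I, 0.19 in II, 0.45 in III, 0.47 in IV and -0.02 in V. Ndufb2 (2.44, SE 0.801, FDR 0.144) and Ndufa9 (-1.35, SE 0.418, FDR 0.131) were at the 2 ends of complex I among genes without overlap.

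Within CD45lo cells no subunit gene changed with the diet, against 0% of all genes, and none had an unadjusted p under 0.05, against 0.822% of all genes. DESeq2 called none either. Of the 77 log2 differences 38 were positive (49.4%, against 50.6% of all genes) and 39 negative, with a median of -0.0010 and a range of -0.67 to 1.04. The 4 WD libraries all lay below the 4 CD libraries for 1 subunit gene, against 1.29% of all genes, and all above for 0, against 1.13%.

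The difference of the CD45 contrast between the diets was tested as an interaction. None of the 77 subunit genes passed, against 0.00668% of all genes, with 3 at an unadjusted p under 0.05 on the higher and 1 on the lower side, against 4.46% and 5.66%. DESeq2 called Sdhd. In edgeR the interaction of Sdhd was 1.52 on the log2 scale (SE 0.394, unadjusted p 0.00125, FDR 0.283). The 3 calls on the WD and the absence of calls on the CD are therefore not shown to differ. The contrasts on the WD, between the diets in CD45hi cells and of the interaction share the same 3 CD45hi libraries of WD-fed mice.

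The CD45hi libraries differed among themselves much more than the CD45lo libraries. The edgeR fit used a single estimate of spread per gene over all groups. The SE and FDR values of CD45hi contrasts therefore draw on the CD45lo libraries too and do not give the spread of the CD45hi libraries alone. The median coefficient of variation of the 77 genes was 52.2% in CD45hi and 18.6% in CD45lo cells of CD-fed mice, and 53.3% and 23.5% in those of WD-fed mice. It was higher in CD45hi cells for 75 of 77 genes on the CD and for 66 of 77 on the WD. The 13577 genes between the lowest and the highest mean level of the subunit genes, which were not matched to them gene by gene, had medians of 59.2% and 23.6% on the CD and 63.9% and 26.5% on the WD. These medians are descriptions with no test. The study states that it evened out how many cells went into each library.

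**Figure D5:**
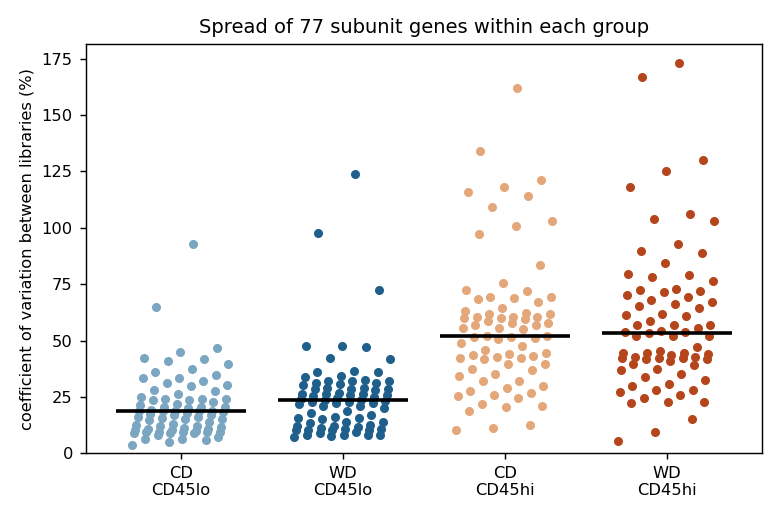
Coefficient of variation in percent between the libraries of a group (y axis) for the 77 tested subunit genes (points), by diet and CD45 gate (x axis), with medians as bars. The medians are 18.6 and 23.5% in CD45lo cells and 52.2 and 53.3% in CD45hi cells of CD- and WD-fed mice.

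Other genes of the pathway were read from lists of known function. The 13 protein genes of the mitochondrial genome, which encode the core subunits, were higher in CD45hi cells for 12 genes on the CD and 11 on the WD, with median log2 differences of 1.15 and 1.08, and 54 and 56 of 80 cytosolic ribosomal protein genes were higher as well. Of all 14967 genes, 891 on the CD and 931 on the WD were higher. For mt-Co1, a catalytic subunit of complex IV, the log2 difference was 1.15 (SE 0.0941, FDR 5.19e-07) on the CD and 1.35 (SE 0.0999, FDR 2.06e-07) on the WD. The part of the composition differences given above was not tested.

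Among 41 assembly factors none was higher, and 1 was lower on the CD and 2 on the WD. Of all 14967 genes, 311 on the CD and 434 on the WD were lower. Lrpprc, which stabilizes mitochondrial mRNAs, was at 23.1 to 49.4 normalized cpm in CD45hi and at 65.0 to 81.1 cpm in CD45lo cells of CD-fed mice (log2 difference -1.003, SE 0.283, FDR 0.0365). Uqcc1, an assembly factor of complex III, was at 4.89 to 8.59 cpm in CD45hi and at 18.9 to 25.8 cpm in CD45lo cells of WD-fed mice (-1.85, SE 0.531, FDR 0.0360), while the sum of the complex III subunits lay in the other direction. Ndufaf6, an assembly factor of complex I, was at 0 to 0.153 cpm in CD45hi and at 1.34 to 1.84 cpm in CD45lo cells of WD-fed mice (FDR 0.0497).

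Of 18 genes of the tricarboxylic acid cycle and pyruvate dehydrogenase, 1 was lower on the CD and none changed on the WD. Of all genes, 8.03% changed on the CD and 9.12% on the WD. The lower gene was Idh2, the NADP-linked isocitrate dehydrogenase, at 7.02 to 12.0 normalized cpm in CD45hi and 27.0 to 34.6 cpm in CD45lo cells (log2 difference -1.72, SE 0.457, FDR 0.0267). Of 76 mitochondrial ribosomal protein genes 1, Mrpl33, was higher on each diet, with 29.3 to 46.0 cpm in CD45hi and 15.3 to 17.9 cpm in CD45lo cells of CD-fed mice and 30.9 to 62.8 and 16.1 to 27.5 cpm in WD-fed mice. None of 13 regulators of these genes, among them Ppargc1a, Nrf1 and Gabpa, none of 17 import and membrane genes and none of the 6 tested pathway genes outside the rule changed in any comparison. Median log2 differences between gates were -0.04 and -0.70 for the regulators on the CD and WD, and -0.05 and -0.46 for the assembly factors. In the comparisons of the diets within each gate and in the interaction, none of these lists had a called gene.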

How the data were processed

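Poly(A) libraries were prepared with the TruSeq RNA kit v2 and read as 75 base pairs from both ends. The authors removed adapters and bases under Phred 30 and quantified genes with RSEM 1.2.12 on mm10 (the submitters' processing notes also name bcl2fastq 2.18.0.12). The annotation release is not given in the sources used here. The deposited files hold an expected count per gene, which is estimated and need not be whole, and a TPM value. The authors' files also give an effective length per gene, used here only as a weighted mean.

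Expected counts were rounded. Genes at 1 cpm or more in at least 2 libraries were kept (14967 of 38924), scaled by TMM and fitted over all 15 libraries and 4 groups with edgeR 4.0.16 (R 4.3.3, legacy quasi-likelihood). CD45hi and CD45lo cells were compared with glmTreat (1.5-fold) and glmQLFTest, and the diets and the interaction with glmQLFTest, at an FDR under 0.05 over all genes kept. The fit was tested on simulated data that had the same spread per gene in every group. This does not test it under the unequal spread of the CD45hi and CD45lo libraries. DESeq2 1.42.0, limma-voom (limma 3.58.1), other filters and scalings, replicate blocks and each library left out were alternatives. TPM served only for levels per length. Replicates agreed less than counting noise allows, and no 2 files were identical.

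Genes were named as those called, the highest and lowest of each complex on each diet, restricted isoforms with their partners, the c subunit genes, the highest TPM of each complex and the called members of other lists, up to 4 a list. Of the genes this gave, 1 is not reported here. Members and lists were chosen with earlier results of these data known. Titles and the numbers in sample file names give different replicate pairs for WD-fed mice, and titles were used.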

Additional observations from a re-analysis of the deposited data

Results flagged for a closer look

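In 87 groups of 4 libraries, over the 29 tested genes of the 36 that the rule for named genes gave, 4 held a library far from the other 3, with a gap to the nearest that was a larger part of the group's range than Dixon's test allows, and about 5% of groups do so by chance. Sdhd was at 69.62 cpm in CD45lo replicate 3 of the WD-fed mice and at 45.1 to 48.3 cpm in the other 3. Ndufb2 was at 5.898 cpm in CD45hi replicate 1 of the CD-fed mice and at 0.580 to 1.23 cpm in the others. In the same library Cox7b was at 19.2 cpm, below the 43.8 to 48.8 cpm of the others. Cox6b2 was at 4.243 cpm in CD45lo replicate 4 of the WD-fed mice and at 0.393 to 0.714 cpm in the others. Groups of 3 libraries were not examined in this way.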

How the results depend on the processing

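Counts of called genes are small and hang on the fit. Changed subunit genes between the gates on the CD, 0 in the report, were 4 with DESeq2 (12.4% of all genes called in the same fit), 1 with the filter at 10 cpm in 3 libraries (12.5%), 1 with the compared groups alone (7.35%), 1 with the edgeR 4 quasi-likelihood (11.2%) and 2 with library totals in place of TMM (8.86%), and 0 to 2 without single libraries. On the WD, 3 in the report, they were 14 with DESeq2 (15.8%), 11 with the edgeR 4 quasi-likelihood (11.9%), 6 with the 10 cpm filter (13.7%), and 1 without a filter (5.47%) or with the compared groups alone (7.27%), and 1 to 9 without single libraries. Past 1.5-fold on the WD, 1 in the report, there were 0 with DESeq2, limma-voom, no filter, the compared groups alone or library totals, 3 with the limit set after the test, and 0 to 2 without single libraries. Between the diets in CD45hi cells, 1 in the report, there were 4 with DESeq2 (6.7%), 0 with the compared groups alone (0%) and 0 to 2 without single libraries, and the interaction had 1 with DESeq2 (1.26%). Shares of all genes are not given for the fits without single libraries or for the alternatives past 1.5-fold. Those counts cannot be read as particular to the subunit genes. The median log2 difference between gates was 0.056 with limma-voom, 0.018 with library totals and 0.136 to 0.298 without single libraries on the CD (0.27 in the report), and 0.30, 0.24 and 0.398 to 0.618 on the WD (0.54), where it was 0.45 without a filter. Between the diets in CD45hi cells it was 0.17 with library totals and 0.154 to 0.348 without single libraries. Taken relative to the median of all genes, it was 0.13 to 0.29 on the CD, 0.45 to 0.68 on the WD and 0.15 to 0.36 between the diets in CD45hi cells over all alternatives. Fits with library totals and without mitochondrial genes were chosen after seeing the data, and the latter moved no count.

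Over the 7 pairs that the title numbers give, correlations of deviations were -0.02 to 0.07. Low correlations between the libraries of 2 gates cannot show whether they came from the same mouse, so pairing was not decided. With the title numbers as a replicate block there was 1 changed gene on the WD (7.58% of all genes), 0 past 1.5-fold and 0 between the diets in CD45hi cells, and the medians between gates were 0.13 and 0.38. With the numbers of the file names as the block there were 1 (4.26%) and 0 on the WD, and the medians were 0.048 and 0.34. That block could not be fitted for the diets.

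The sign of Uqcr11 on the CD turned with limma-voom (-1.03), the title block (-0.19), the file name block (-0.47) and library totals (-0.13), and its range without single libraries was -0.33 to 0.49. That of Uqcrc1 on the WD turned with library totals (-0.14) and without CD45hi replicate 3 (-0.10 to 0.33 over libraries left out), and that of Cox6b2 on the CD without CD45lo replicate 3 (-1.23 to 0.088 over libraries left out). The causes were not tested. Depth limits the genes near 3 counts, such as Cox6a2 and Cox6b2, and 3 libraries of CD45hi cells of WD-fed mice limit all contrasts that use them.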
